A study of Mus musculus with 4 samples.

Results

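The respiratory chain genes were followed in droplet-based single-cell transcriptomes of circulating T cells from mice with MC-38 tumors, a colon carcinoma line grown under the skin. Members were taken by symbol: every gene starting with mt-, the complex I subunits (Ndufa, Ndufb, Ndufc, Ndufs and Ndufv with a number), the complex II subunits Sdha to Sdhd, the complex III genes (Uqcr), the complex IV genes (Cox4 to Cox8) and the ATP synthase genes (Atp5). The rule found 97 of 27998 genes, of which 13 are encoded by mitochondrial DNA (mtDNA) and 84 by the nucleus. The mtDNA-encoded members comprised 7 genes of complex I, 1 of complex III, 3 of complex IV and 2 of complex V, and the nuclear members 37, 4, 8, 18 and 17 genes of complexes I to V. A UMI, the tag that marks 1 captured transcript molecule, was found for 79 nuclear members, and 75 of them had at least 50 UMIs.

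The 4 samples came from 4 C57BL/6 mice aged 6 to 8 weeks at the start of the experiments, all bled on day 18 after tumor challenge, with 1 library per group. The untreated mouse carried the tumor and received no antibody. Anti-PD-L1, which blocks an inhibitory ligand of T cells, was injected into the peritoneum at 150 µg on days 10, 13 and 17. Anti-OX40/CpG consisted of 150 µg of an antibody that triggers the costimulatory receptor OX40 and 25 µg of CpG, a ligand of Toll-like receptor 9, given near the tumor on day 7, and PDOX was the combination of both. The library labelled OX40 was read as anti-OX40/CpG, following the regimen of the study. Mouse, library and treatment cannot be told apart in this design, and no test between treatments was possible.

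The respiratory chain of the inner mitochondrial membrane passes electrons from NADH (complex I) or succinate (complex II) through complexes III and IV to oxygen, and the ATP synthase (complex V) uses the resulting proton gradient. The mitochondrial genome encodes core subunits of complexes I, III, IV and V, transcribed as long precursors that are cut into single messages, whereas complex II and all other subunits are nuclear genes translated in the cytosol. Naive T cells are known to rest on mitochondrial ATP production, and activated and dividing T cells are known for raised glycolysis together with growth of their mitochondria.

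A pair of mtDNA-encoded genes is shown first, because the lowest ratios of a treated to the untreated library, described at the end, lay in these short genes. *mt-Atp8*, a small subunit of the ATP synthase, lies on the mitochondrial chromosome (MT) from 7766 to 7969 and shares its last 43 bases, 7927 to 7969, with the start of *mt-Atp6*. *mt-Nd4l*, a complex I subunit, lies from 9877 to 10173 and shares its last 7 bases, 10167 to 10173, with the start of *mt-Nd4*. Each pair is read from 1 shared message. The positions are those of GENCODE M39 and are the same in RefSeq for GRCm38, the build called mm10 in the submitters' processing notes. The strand is plus for both, and capitals mark the bases shared with the next gene.
mt-Atp8: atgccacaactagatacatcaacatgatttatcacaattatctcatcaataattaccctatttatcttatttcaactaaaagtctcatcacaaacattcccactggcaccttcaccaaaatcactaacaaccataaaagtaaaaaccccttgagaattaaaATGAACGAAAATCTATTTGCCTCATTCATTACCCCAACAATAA
mt-Nd4l: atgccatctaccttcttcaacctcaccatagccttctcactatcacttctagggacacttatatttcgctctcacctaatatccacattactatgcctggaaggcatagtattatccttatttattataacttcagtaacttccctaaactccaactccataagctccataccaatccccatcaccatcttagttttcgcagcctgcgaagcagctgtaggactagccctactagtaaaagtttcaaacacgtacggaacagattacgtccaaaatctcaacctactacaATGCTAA

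The 4 libraries held between 2392650 and 4969885 UMIs. In the 5304 cells with at least 200 detected genes, 2.12% to 2.79% of a library's UMIs came from the mtDNA-encoded members, 1.69% to 2.05% from the nuclear members and 35.2% to 43.6% from cytosolic ribosomal protein genes. Cells were gated by marker genes into 2921 naive T cells, 1009 effector T cells, 53 cycling T cells, 161 NK cells, 154 B cells and 120 monocytes, and 886 cells entered no gate. The sample label names enriched CD3+ T cells, and 4489 of the 5304 cells met the T cell criteria. *Cd3d*, *Cd3e* and *Cd3g* together held 23.3 to 26.3 UMIs per 10000 in naive T cells and at most 1.03 in the NK, B and monocyte gates. The untreated library had only 2 cycling T cells and the anti-OX40/CpG library 8 B cells, so these sums entered no test. Of all barcodes, 16 occurred in more than 1 library, and 9 of these were gated cells in more than 1 library.

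Levels are given as UMIs per 10000 UMIs of all genes, summed over the cells of a gate in a library, and intervals are exact 95% intervals that cover counting error only. Wherever 4 values stand in a row they follow 1 order, with untreated first, anti-PD-L1 second, then anti-OX40/CpG, and PDOX last, and rows of 3 leave out untreated unless libraries are named. The mtDNA-encoded sum in naive T cells was 278, 239, 247 and 239. In effector T cells it was 261, 228, 210 and 185. The effector level was thus lower in each library, and the ranges of the gates overlapped because the untreated library was the highest in both. The nuclear sum ran the other way, at 162, 177, 171 and 179.8 in naive T cells and 205, 232, 227 and 233 in effector T cells, with no overlap. The ratio of effector to naive T cells, taken within a library, was 0.773 to 0.955 for the mtDNA-encoded sum and 1.26 to 1.33 for the nuclear sum.

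**Figure D1:**
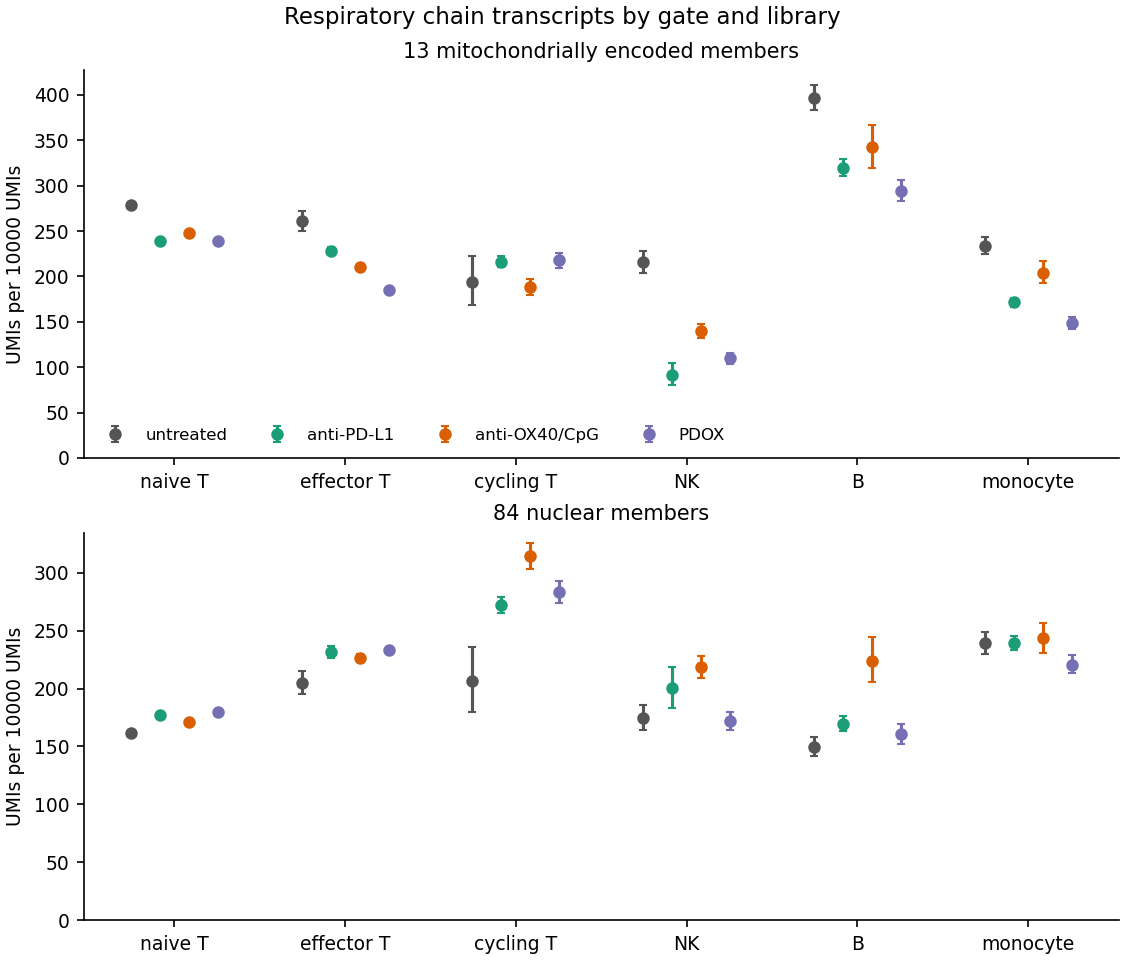
Summed UMIs of the 13 mtDNA-encoded members (top) and the 84 nuclear members (bottom) per 10000 UMIs of all genes, by gate and library, with bars for exact 95% Poisson intervals. The B cell gate had the highest mtDNA-encoded sums (295 to 397) and the cycling T cell gate the highest nuclear sums in the treated libraries (272 to 314).

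These shares depend on the rest of the transcripts. Ribosomal protein genes took 45.8% to 50.4% of the UMIs in naive T cells and 27.1% to 30.2% in effector T cells. With ribosomal protein and hemoglobin genes left out of the denominator, the ratio of effector to naive T cells was 0.555 to 0.712 for the mtDNA-encoded sum and 0.93 to 0.976 for the nuclear sum. The lower mtDNA-encoded level held on both scales, and the nuclear sum changed direction. The mtDNA-encoded sum per nuclear UMI needs no denominator, and it was 1.72, 1.35, 1.45 and 1.33 in naive against 1.27, 0.984, 0.926 and 0.792 in effector T cells. All 4 effector values lay below all 4 naive values. The median UMIs per cell were 2817 to 3365 in the naive gate and 2479 to 3589 in the effector gate.

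The comparison of effector with naive T cells asked which members moved within the same blood sample. It used edgeR's quasi-likelihood test with the library as a block and Benjamini-Hochberg adjustment over all 7463 genes tested, with TMM scaling, which centers the bulk of genes at no change. The replicates were the libraries, which came from mice under different treatments, and of the 31 members called here 29 moved the same way in every library. Of the 88 members that passed the filter on low counts, 8 (9.09%) rose and 23 (26.1%) fell, against 15.2% and 15.0% of all genes. The falls were concentrated in the mtDNA-encoded genes, of which 12 of 13 (92.3%) fell, with a median log2 fold change of -0.67 against -0.01 for all genes tested. Of 75 nuclear members 8 rose (10.7%) and 11 fell (14.7%), shares close to or below those of all genes, and their median was -0.01.

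Scaling set the direction of the nuclear calls. With library size alone, 42.0% of all genes were called higher and 6.02% lower, and the median of all genes tested moved from -0.01 to 0.42 on the log2 scale. On that scale 53 members, all nuclear, rose and 8 fell, of which 7 were mtDNA-encoded and the eighth was *Cox7a2l*. Relative to the bulk of genes, which TMM centers at no change, 8 members rose. Another 45 rose only as shares of all UMIs.

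**Figure D2:**
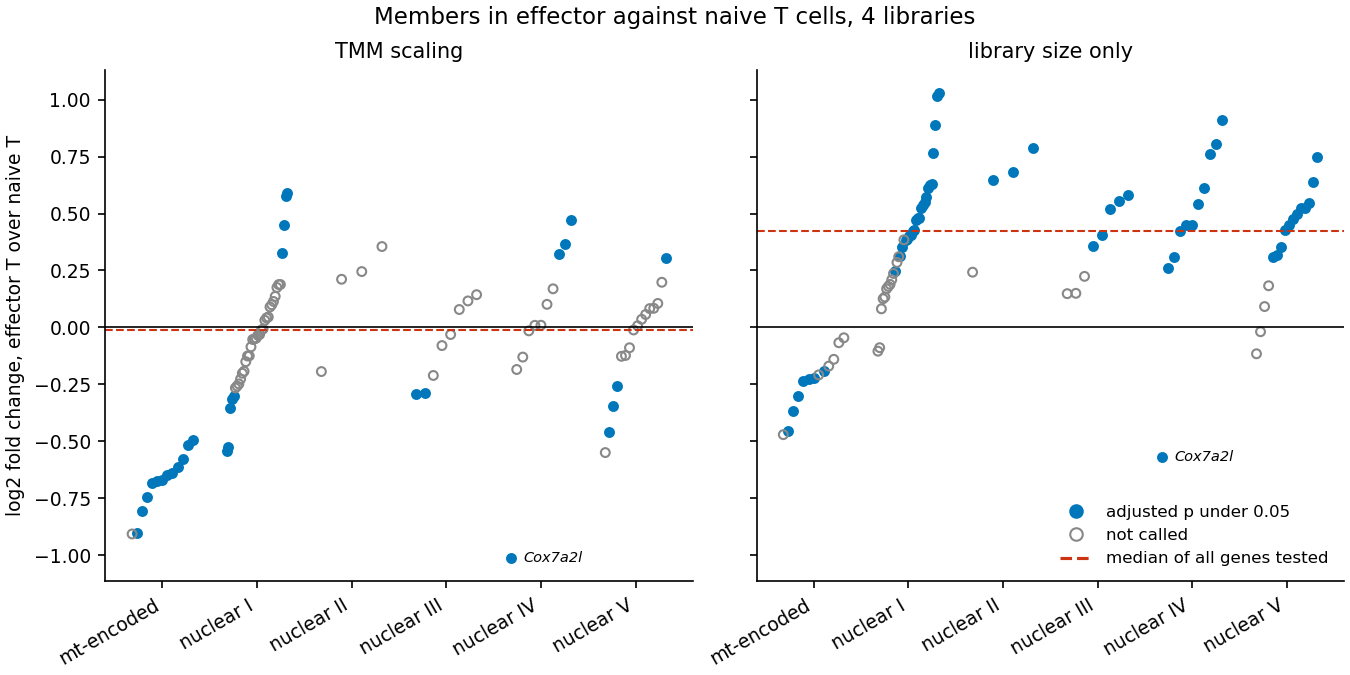
Each point is a member, placed by its log2 fold change of effector over naive T cells (vertical axis) within the mtDNA-encoded group or its nuclear complex, under TMM scaling (left) and library size only (right). Filled points passed an adjusted p of 0.05 in edgeR, and the dashed line is the median of all genes tested, -0.01 on the left and 0.42 on the right.

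Among the complex I genes of mtDNA, *mt-Nd2* was read at 10.9, 7.97, 10.6 and 7.92 UMIs per 10000 in naive T cells. In effector T cells it was at 7.68, 6.52, 8.33 and 4.83. The effector level was lower in each of the 4 libraries, although the ranges overlapped between libraries, and the log2 fold change under TMM was -0.90 (SE 0.09, adjusted p 2.108e-11, edgeR). *mt-Nd1* changed by -0.75, *mt-Nd4* by -0.67, *mt-Nd4l* by -0.81, *mt-Nd5* by -0.65 and *mt-Nd3* by -0.58 on the log2 scale, and each fell in 4 of 4 libraries. *mt-Nd6*, the only member on the opposite strand of the mitochondrial genome, was at 0.0266 to 0.252 UMIs per 10000 in effector T cells, and its change of -0.91 (SE 0.40) had an adjusted p of 0.0886 in edgeR and was not called.

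*mt-Cytb*, the mtDNA-encoded subunit of complex III, changed by -0.68 (SE 0.07). Of the 3 core subunits of cytochrome c oxidase, *mt-Co1* was at 42.3, 38.6, 39.6 and 35.3 UMIs per 10000 in naive and at 42.3, 39.9, 35.5 and 31.3 in effector T cells. Its log2 fold change was -0.52 (SE 0.06, adjusted p 1.26e-08, edgeR) under TMM and -0.07 with library size alone, where it was not called. *mt-Co2* had the smallest change of the 13 genes at -0.49, followed by *mt-Co1*, and *mt-Co3* changed by -0.64. Of the ATP synthase genes, *mt-Atp6* was at 68.0, 57.5, 56.2 and 60.0 in naive and 62.7, 53.6, 47.4 and 44.4 in effector T cells, a change of -0.67 (SE 0.06). *mt-Atp8* changed by -0.61 (SE 0.13).

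Among nuclear genes of complex I, 4 of 36 tested rose and 5 fell, against 15.2% and 15.0% of all genes tested. *Ndufb7*, an accessory subunit facing the intermembrane space, was at 1.35, 1.57, 1.48 and 1.87 UMIs per 10000 in naive T cells and at 3.15, 3.17, 3.15 and 3.38 in effector T cells. The gates did not overlap, and the log2 fold change was 0.58 (SE 0.10, adjusted p 1.831e-05, edgeR). *Ndufb9*, another accessory subunit, rose by 0.45 and *Ndufv2*, an iron-sulfur subunit of the NADH-oxidizing arm, by 0.33. *Ndufb8* was called at 0.59, but it was lower in 1 of 4 libraries on the TMM scale.

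The complex I genes that fell were *Ndufa6*, *Ndufa5*, *Ndufa10*, *Ndufa2* and *Ndufb4*, all accessory subunits. *Ndufa6* was at 3.28, 3.43, 3.42 and 3.06 UMIs per 10000 in naive and 2.39, 2.63, 3.18 and 3.54 in effector T cells, so its levels overlapped on the all-UMI scale. Relative to the TMM baseline it changed by -0.54 (SE 0.11) and was lower in 4 of 4 libraries. *Ndufa5* changed by -0.53 and *Ndufa10* by -0.36. With library size alone *Ndufa6* and *Ndufa5* were not called and *Ndufa10* was at 0.08. *Ndufa4*, named for complex I and now counted with complex IV, changed by 0.04 and was not called.

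None of the 4 complex II genes was called by edgeR, and 2 of them had an unadjusted p under 0.05. DESeq2 also called 0. *Sdha*, the flavoprotein that oxidizes succinate, changed by -0.19, the iron-sulfur subunit *Sdhb* by 0.25, and the membrane anchors *Sdhc* and *Sdhd* by 0.21 and 0.36. In complex III, 2 of 8 genes fell and 0 rose, against 15.0% lower and 15.2% higher of all genes tested. The count of higher genes was 0 also at an unadjusted p under 0.05 and by DESeq2. The 2 that fell were *Uqcrh*, the hinge protein at cytochrome c1, at -0.29, and *Uqcrfs1*, the Rieske iron-sulfur protein, at -0.29.

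In complex IV, 3 of 11 nuclear genes rose and 1 fell, against the same 15.2% and 15.0% of all genes tested. *Cox5b* was at 2.17, 2.69, 2.24 and 2.44 UMIs per 10000 in naive and 5.04, 4.39, 4.07 and 4.80 in effector T cells, with no overlap. Its log2 fold change was 0.47 (SE 0.10, adjusted p 0.000243, edgeR). *Cox6b1*, which lies on the intermembrane side, rose by 0.32, and *Cox5a*, which lies on the matrix side as *Cox5b* does, by 0.37, the latter in 3 of 4 libraries.

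*Cox7a2l*, whose product is described as a factor that joins complex III to complex IV in supercomplexes, fell by more than any other member tested. Its protein and function in these C57BL/6 mice were not measured. It was at 10.4, 10.2, 9.24 and 10.1 UMIs per 10000 in naive T cells and at 5.54, 6.74, 6.30 and 7.65 in effector T cells. Every effector level lay below every naive level, and the log2 fold change was -1.01 (SE 0.09, adjusted p 7.557e-13, edgeR). It fell also with library size alone, by -0.57 (adjusted p 8.255e-07). Without any single library the value stayed between -1.08 and -0.94.

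On the all-UMI scale, 37 of the 88 tested members (42.0%) had effector levels that all lay above the naive levels, against 28.3% of all genes tested. *Cox7a2l* was the only member (1.14%) with all effector levels below the naive levels, against 4.06% of all genes. The levels of the other 50 tested members overlapped.

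In complex V, 1 of 16 nuclear genes rose and 3 fell, against 15.2% and 15.0% of all genes tested. The riser was *Atp5h*, subunit d of the peripheral stalk, at 0.31 (SE 0.09). The genes *Atp5g1*, *Atp5g2* and *Atp5g3* encode one and the same mature c subunit of the membrane ring with different import sequences. *Atp5g2* was at 4.23, 4.70, 4.21 and 4.58 UMIs per 10000 in naive and 4.41, 4.68, 4.20 and 4.27 in effector T cells, nearly level on the all-UMI scale. It changed by -0.46 (SE 0.09, adjusted p 0.0001296, edgeR) relative to the TMM baseline, *Atp5g1* by -0.35 (called) and *Atp5g3* by -0.13 (not called). With library size alone *Atp5g2* was at -0.02, *Atp5g1* at 0.09 and *Atp5g3* at 0.31, so the falls of *Atp5g1* and *Atp5g2* hold only relative to other genes.

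The promoters of the member that fell most and of the leading complex I genes in each direction are printed because the members moved in different directions within 1 complex. The windows are those of RefSeq on GRCm38.p6, 250 bases before to 50 after the start, on the strand of the gene. *Cox7a2l* lies on the minus strand at chr17:83514284-83514583, *Ndufa6* on the minus strand at chr15:82354242-82354541 and *Ndufb7* on the plus strand at chr8:83566508-83566807. Capitals mark a match to the motif of the factor NRF1 in *Ndufa6* and of the ETS family, which includes GABP, in *Ndufb7*. None of the 3 motifs searched occurs in the *Cox7a2l* window.
Cox7a2l: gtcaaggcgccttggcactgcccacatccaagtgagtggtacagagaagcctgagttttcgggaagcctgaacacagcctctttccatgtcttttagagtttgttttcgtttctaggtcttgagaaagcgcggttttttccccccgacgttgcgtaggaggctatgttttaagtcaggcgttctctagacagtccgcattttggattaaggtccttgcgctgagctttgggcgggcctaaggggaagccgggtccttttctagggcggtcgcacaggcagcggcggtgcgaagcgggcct
Ndufa6: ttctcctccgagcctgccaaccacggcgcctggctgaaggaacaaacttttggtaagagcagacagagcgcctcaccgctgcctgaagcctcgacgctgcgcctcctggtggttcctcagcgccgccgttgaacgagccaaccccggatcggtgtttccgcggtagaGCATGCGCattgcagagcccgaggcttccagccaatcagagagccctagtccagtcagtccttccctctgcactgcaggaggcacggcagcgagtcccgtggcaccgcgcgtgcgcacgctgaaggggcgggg
Ndufb7: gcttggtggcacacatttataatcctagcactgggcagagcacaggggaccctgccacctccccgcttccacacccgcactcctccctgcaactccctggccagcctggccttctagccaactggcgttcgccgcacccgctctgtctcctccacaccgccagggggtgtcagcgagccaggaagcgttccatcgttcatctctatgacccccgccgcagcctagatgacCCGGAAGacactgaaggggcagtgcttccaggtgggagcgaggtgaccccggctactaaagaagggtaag

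The motifs were searched on both strands as GCATGCGC for NRF1, CCGGAAG for ETS factors and AAGATGGC for YY1, factors known for many promoters of respiratory chain genes. The NRF1 letters and their reverse complement overlap in a full palindromic site, and the AAG that ends the ETS letters can begin the YY1 letters. A window was found for 69 of the 84 nuclear members, 75 windows in all. NRF1 letters were in 13.3% of these windows and 2.71% of all 32851 windows of the same length, ETS letters in 21.3% and 8.86%, and YY1 letters in 16.0% and 2.75%. Of the genes called in effector against naive T cells, 7 that rose and 10 that fell had a window. NRF1 letters were in 0 and 2 of them, ETS letters in 3 and 2, and YY1 letters in 1 and 0. The letters are a description of these windows and do not mark bound sites.

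Genes that serve the chain without matching the symbol rule were taken from 2 lists. Of 38 tested partners and assembly factors, 3 rose and 5 fell in effector against naive T cells, and of 21 tested genes of mtDNA transcription, translation and their regulators, 1 rose and 3 fell. These shares were 7.89% and 13.2% in the former list and 4.76% and 14.3% in the latter, all below the 15.2% and 15.0% of all genes. The median log2 fold change was -0.04 in the former list and -0.19 in the latter, against -0.01 for all genes tested. *Atpif1*, the inhibitor of ATP hydrolysis by complex V, rose by 0.82 (SE 0.13) and *Cox17*, the copper chaperone of complex IV, by 0.81 (SE 0.11, higher in 3 of 4 libraries). *Esrra*, a nuclear receptor that activates respiratory genes, rose by 0.97 (SE 0.29). *Foxred1*, a complex I assembly factor, changed by -1.27 (SE 0.45), and *Pnpt1*, an RNA-processing enzyme of mitochondria, by -1.12 (SE 0.41), each lower in 4 of 4 libraries. *Ppargc1b*, a coactivator of mitochondrial genes, was called at -1.37 but was lower in only 2 of 4 libraries.

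CD8+ cells (a *Cd8a* or *Cd8b1* UMI and no *Cd4* UMI) and CD4+ cells (the reverse) were also compared apart, in the 3 treated libraries, since the untreated library had 9 and 6 effector cells. In CD8+ cells 9 of 86 members rose (10.5%) and 21 fell (24.4%), against 14.6% and 14.3% of 4804 genes, and all 12 mtDNA-encoded genes tested fell, with a median log2 fold change of -0.82. *mt-Nd4l* led the falls with -1.32 (SE 0.22), followed by *mt-Nd2* with -1.01 and *mt-Nd1* with -0.96. *Ndufb8* rose by 0.61, *Ndufb7* by 0.50 and *Atp5h* by 0.46, each higher in 3 of 3 libraries. Under library size scaling 49 members rose (57.0%) and 10 fell (11.6%), against 40.8% and 6.04% of all genes.

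In CD4+ cells 1 of 85 members rose (1.18%) and 13 fell (15.3%), against 9.40% and 11.1% of 3629 genes. Of the 12 mtDNA-encoded genes 9 fell, and their median was -0.46. *Cox7a2l* fell by 1.05 on the log2 scale (SE 0.13) and *Ndufb7* rose by 0.50 (SE 0.19), each in 3 of 3 libraries. Of the 9 mtDNA-encoded genes called, only *mt-Nd1* was lower in 3 of 3 libraries, and the other 8, *mt-Nd5* (-0.76) and *mt-Nd2* (-0.73) among them, were lower in 2 and higher in 1. The exception was the anti-PD-L1 library, whose 13 CD4+ effector cells held 386 mtDNA-encoded UMIs per 10000. Taken cell by cell, their median was 295 per 10000 and their quartiles 250 and 597, against a median of 229 in the CD4+ naive cells of that library. Without that library 13 members were called, and without anti-OX40/CpG or without PDOX 1. On the library size scale 33 members rose (38.8%) and 1 fell (1.18%), against 30.5% and 5.29% of all genes, and none of the 12 mtDNA-encoded genes was called by edgeR.

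Whether the change differed between the lineages was tested by an interaction term over the 3 libraries. By edgeR, 0 of 86 members were called against 0.736% of 5165 genes. An unadjusted p under 0.05 was found for 8 of 86 members, against 7.98% of all genes. Those 8 comprised *mt-Atp6*, *mt-Nd3*, *mt-Nd4l*, *mt-Co3* and *mt-Nd1*, each with a lower change in CD8+ than in CD4+ cells. The others were the nuclear *Atp5g2*, *Uqcr11* and *Atp5h*, of which only *Atp5h* had the higher change in CD8+ cells. The 13 CD4+ effector cells of the anti-PD-L1 library entered this term. The smallest p belonged to *Atp5g2*, whose change was lower in CD8+ than in CD4+ cells by 0.64 on the log2 scale (SE 0.19, adjusted p 0.106). The next was *mt-Atp6*, with a difference of -0.38 (SE 0.12, adjusted p 0.124).

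Cycling T cells, gated by mitotic genes, were compared with effector T cells in the 3 treated libraries (22, 13 and 16 cycling cells). The nuclear sum was 272, 314 and 283 UMIs per 10000 in cycling cells of the treated libraries and 232, 227 and 233 in effector cells, higher in each library. The mtDNA-encoded sum was 216, 188 and 218 against 228, 210 and 185, lower in 2 libraries and higher in PDOX. Of 85 members 15 rose (17.6%) and 1 fell (1.18%), against 9.47% and 6.54% of 3441 genes. All 15 were nuclear genes, and their complexes were I (5 of 35 tested), II (1 of 4), III (1 of 8), IV (3 of 11) and V (5 of 15). Of the 12 mtDNA-encoded genes tested, 0 were called by edgeR, 0 had an unadjusted p under 0.05 and 0 were called by DESeq2.

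*Atp5b*, the catalytic beta subunit of the ATP synthase, was at 5.11, 3.91 and 4.84 UMIs per 10000 in effector and 8.14, 9.34 and 7.47 in cycling T cells of the treated libraries. All cycling values exceeded all effector values, and the log2 fold change was 0.76 (SE 0.14, adjusted p 0.0002879, edgeR). *Sdhb* rose by 0.79 and *Cox5b* by 0.75. *Ndufa6* was the only member that fell, from 2.63, 3.18 and 3.54 to 2, 1.68 and 1.49, a change of -0.88 (SE 0.20). The median cycling cell held 5684 to 6809 UMIs in these libraries, against 2479 to 3589 in the effector gate, and the part of depth in these differences was not tested. Of the other pathway genes, 1 of 19 partners and assembly factors (5.26%, against 9.47% of all genes) rose and 0 fell, and 0 of 4 mtDNA expression genes were called. DESeq2 called 3 members higher and 1 lower, and without the anti-OX40/CpG or the anti-PD-L1 library 7 and 9 members were called by edgeR in place of 16.

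The NK gate, part of whose cells held neutrophil transcripts as given below, had the lowest mtDNA-encoded level of the 6 gates in the treated libraries. Its sum was 216, 91.7, 139.9 and 109.6 UMIs per 10000, lower than in naive T cells of the same library each time. The nuclear sum was 175, 200.1, 219 and 172, against 162 to 179.8 in naive T cells. Of 87 members 0 rose and 37 fell (42.5%), against 8.97% and 16.0% of 5627 genes. At an unadjusted p under 0.05 1 member was higher, and DESeq2 called 0 higher and 14 lower. The falls comprised all 12 mtDNA-encoded genes tested, with a median of -1.48, and 25 of 75 nuclear members, against a median of -0.30 for all genes tested. *mt-Nd4l* was at -2.28 (SE 0.50), *mt-Nd4* at -1.59 (SE 0.22) and *mt-Co3* at -1.57 (SE 0.21).

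*mt-Co3*, a core subunit of cytochrome c oxidase, was at 56.4, 49.7, 52.1 and 50.5 UMIs per 10000 in naive T cells and at 44.4, 16.3, 27.5 and 22.5 in NK cells, without overlap. With library size alone 7 members rose (8.05%) and 10 fell (11.5%), against 16.9% and 6.50% of all genes, and the median of all genes tested was 0.29. On that scale 9 of the 10 were mtDNA-encoded. Of the nuclear members, 25 were called lower under TMM and 1 with library size alone, whereas 9 of the 12 mtDNA-encoded genes fell on both scales. The nuclear count under TMM also changed when cells with neutrophil UMIs were left out, as given below.

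The NK gate also held neutrophil transcripts. It set no limit on them, so neutrophils within the gate were not excluded. The NK markers (*Ncr1*, *Klrb1c*, *Klra8*, *Klra4* and *Tyrobp*) summed to 70.4, 79.3, 75.3 and 82.0 UMIs per 10000 there. The same list summed to 50.1, 50.8, 36.8 and 52.8 in the monocyte gate, where 1, 2, 1 and 1 of its 5 genes had a UMI. A high sum of this list was thus not particular to NK cells. The neutrophil sum of the NK gate exceeded its NK marker sum in the untreated, anti-PD-L1 and PDOX libraries. The list *S100a8*, *S100a9*, *Retnlg*, *Mmp9* and *Csf3r* summed to 398, 966, 63.7 and 602 UMIs per 10000 in the NK cells, and to at most 0.129 in naive T cells. At least 5 such UMIs were found in 13 of 34, 6 of 13, 3 of 43 and 29 of 71 NK cells. Without those cells the mtDNA-encoded sum was 244, 113, 144 and 142 and the nuclear sum 192, 244, 222 and 193, and 7 anti-PD-L1 cells were too few for the test. In the other 3 libraries all 12 mtDNA-encoded genes fell again (median -1.08), while 6 of 75 nuclear members (8%) fell and 0 rose, against 10% and 8.29% of 5648 genes. With all cells of the gate and 4 libraries, 25 nuclear members had fallen.

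B cells had the highest mtDNA-encoded levels. The sum was 397, 320.0, 343 and 295 UMIs per 10000, above the 239 to 278 of naive T cells in all 4 libraries. The nuclear sum was 149.8, 169.8, 224 and 161, with the highest value from the 8 B cells of the anti-OX40/CpG library. In the 3 libraries tested, 4 of 87 members rose (4.60%) and 16 fell (18.4%), against 7.98% and 9.22% of 5761 genes. The rises were *mt-Nd5*, *mt-Co2*, *mt-Co1* and *Atp5sl*, and all 16 falls were nuclear. *mt-Co2*, which holds the copper center that receives electrons from cytochrome c, was at 22.5, 19.4 and 19.1 in naive T cells and 33.8, 28.6 and 28.6 in B cells of the untreated, anti-PD-L1 and PDOX libraries, and it rose by 0.34 (SE 0.09).

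*mt-Nd5* rose by 0.75 (SE 0.17). *Atp5sl* rose by 1.38 (SE 0.36) from 0.234, 0.272 and 0.271 to 0.854, 0.621 and 1.04 in the same 3 libraries. Its name places it with the ATP synthase, but its product is known as an assembly factor of complex I. *Ndufv3*, an accessory subunit of the NADH-oxidizing arm, was at -1.03 (SE 0.23), and *Uqcr11* and *Uqcr10*, small subunits of complex III, at -0.82 and -0.81. Scaled by library size, 11 members rose (12.6%) and 1 fell (1.15%), against 10.9% and 5.99% of all genes, and 9 of the 11 were mtDNA-encoded. Platelet transcripts were present in this gate. *Pf4*, *Ppbp*, *Gp9* and *Itga2b* summed to 2.44, 0.69, 0 and 21.1 UMIs per 10000 in B cells, against at most 0.271 in naive T cells, and their part in the B cell values was not tested. Without PDOX, the library with the highest platelet sum, 2 members rose and 14 fell, and the median ratio of the mtDNA-encoded sum to naive T cells was 1.38 in place of 1.34. DESeq2 called only *Atp5sl* among the members. Without the untreated library 6 members were called and without anti-PD-L1 12.

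In monocytes the mtDNA-encoded sum was 234, 171, 204 and 149 UMIs per 10000 and the nuclear sum 239.5, 239, 244 and 221, so the former lay below and the latter above naive T cells in each library. Of 88 members 13 rose (14.8%) and 20 fell (22.7%), against 20.6% and 20.5% of 6210 genes. The share of members called lower was near that of all genes, but 12 of the 20 were among the 13 mtDNA-encoded genes tested, whose median was -0.92 against -0.12 for all genes. All 13 rises were nuclear, and 27 of the 33 members called moved the same way in every library. *Ndufb8* was at 1.11, 1.04, 0.816 and 0.9496 in naive T cells and 3.20, 2.80, 2.57 and 2.22 in monocytes, a rise of 1.01 (SE 0.18, adjusted p 4.317e-06, edgeR) with no overlap.

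The core iron-sulfur subunit *Ndufs8* rose by 0.91 and the accessory subunit *Ndufc2* by 0.73. *mt-Nd2*, *mt-Nd5* and *mt-Nd3* were at -1.43, -1.30 and -1.25, each lower in 4 of 4 libraries. Scaled by library size, 43 members rose (48.9%) and 9 fell (10.2%), against 31.0% and 12.1% of all genes, and 8 of the 9 were mtDNA-encoded. *Cox7a2l* was called lower under TMM scaling in effector T cells, NK cells, B cells and monocytes alike, at -1.01, -1.08, -0.49 and -0.87 on the log2 scale, each against the same naive T cells.

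**Figure D3:**
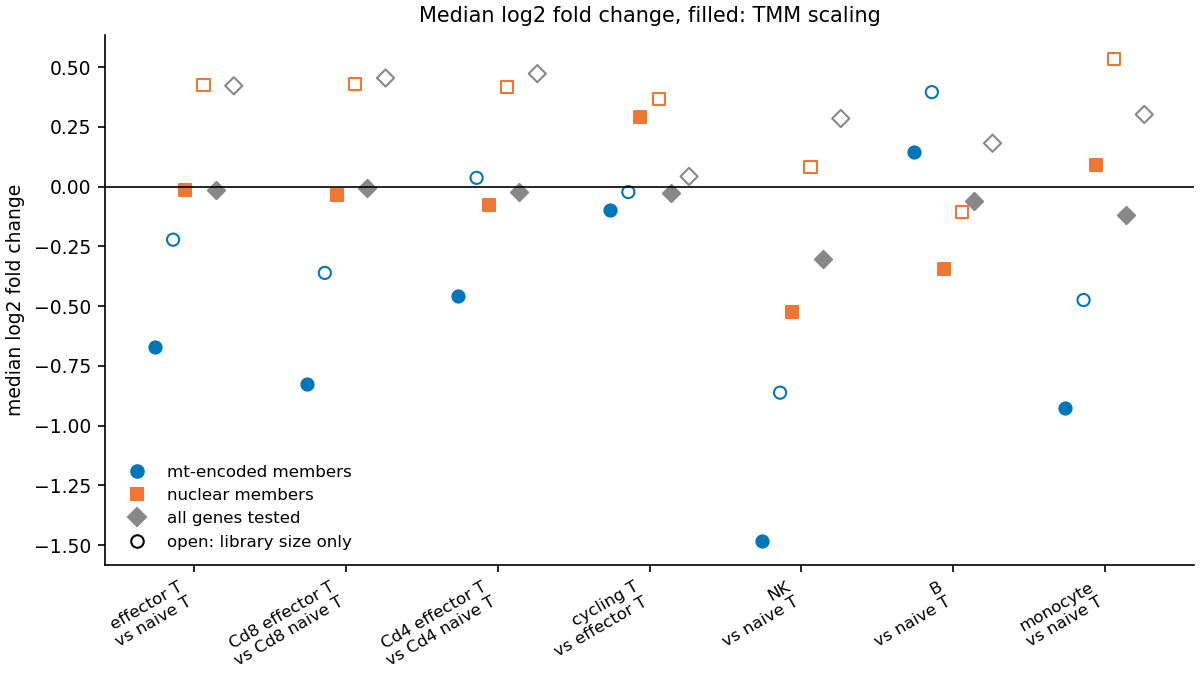
Median log2 fold change of the mtDNA-encoded members (circles), the nuclear members (squares) and all genes tested (diamonds) in 7 gate comparisons, under TMM scaling (filled) and library size only (open). The mtDNA-encoded median under TMM lay below that of all genes in effector T cells, NK cells and monocytes (-0.67, -1.48 and -0.92) and above it in B cells (0.15), and the comparisons with naive T cells share those cells.

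The treatments were compared with the untreated library in naive T cells, the gate with most cells in the untreated, anti-PD-L1 and anti-OX40/CpG libraries. All 3 ratios share that 1 untreated library and have no replicate check. The mtDNA-encoded sum was 0.857 (interval 0.847 to 0.868) of the untreated level in anti-PD-L1, 0.888 (0.878 to 0.899) in anti-OX40/CpG and 0.857 (0.845 to 0.869) in PDOX. The nuclear sum was 1.09, 1.06 and 1.11 of the untreated level. Without ribosomal protein and hemoglobin genes the mtDNA-encoded ratios were 0.884, 0.97 and 0.888.

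Few members were past 1.5-fold. In anti-PD-L1 0 of 87 members were higher and 2 (2.30%) lower, against 3.84% and 6.09% of 5962 genes. In anti-OX40/CpG 5 of 88 (5.68%) were higher and 0 lower, against 3.01% and 10.7% of 5646 genes, and in PDOX 2 of 86 (2.33%) were higher and 4 (4.65%) lower, against 2.66% and 7.06% of 4630 genes. The members' shares stayed near or below those of all genes, except for the higher genes of anti-OX40/CpG. By side of 1, 58 of 75 nuclear members were above it in anti-PD-L1, 39 of 75 in anti-OX40/CpG and 58 of 74 in PDOX. Of the mtDNA-encoded members, 12 of 12, 11 of 13 and 12 of 12 were below 1. The share of all genes on each side is not given here, so these counts have no background. The median log2 ratios of the nuclear members were 0.14, 0.01 and 0.18, those of the mtDNA-encoded members -0.25, -0.11 and -0.25, and those of all genes -0.08, -0.19 and -0.05. The median of all genes was thus itself below 0 in each treated library. In anti-OX40/CpG the mtDNA-encoded median lay above it.

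**Figure D4:**
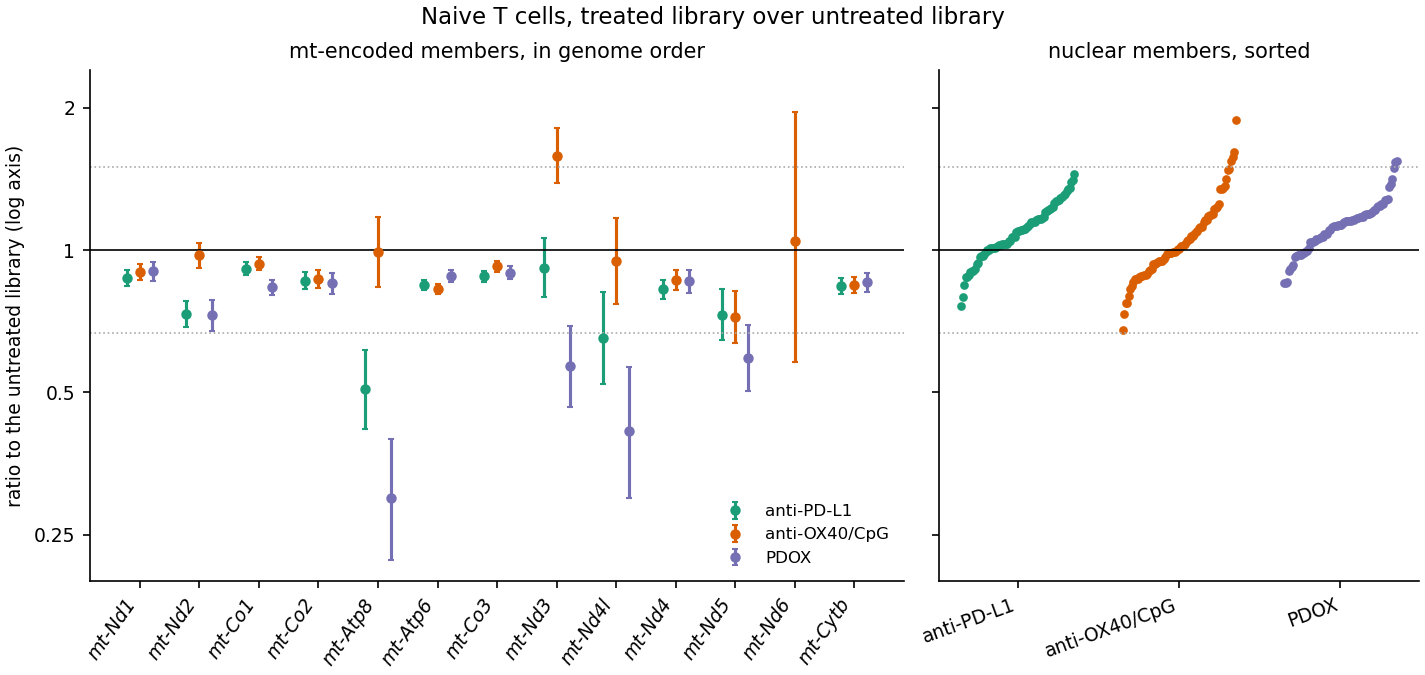
Ratio of the treated to the untreated library in naive T cells on a log axis, for the mtDNA-encoded members in genome order with exact 95% intervals (left) and for the nuclear members sorted within each treatment (right). Dotted lines mark 1.5-fold, and *mt-Atp8* in PDOX is the lowest point at 0.299.

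Among nuclear members, *Atp5k*, subunit e of the ATP synthase membrane part, had the highest ratio, at 1.36, 1.60, 2.56 and 1.16 UMIs per 10000 in naive T cells. The anti-OX40/CpG level was 1.88 times the untreated one (interval 1.61 to 2.21). *Ndufa3*, an accessory complex I subunit, stood out in the same library, at 3.70 against 2.26 to 2.36 in the other libraries, a ratio of 1.61. The same library was above untreated in other gates. In effector T cells, NK cells, B cells and monocytes *Atp5k* was at ratios of 2.25, 2.19, 3.15 and 2.35, and *Ndufa3* at 1.90, 1.75, 1.44 and 1.14. Intervals included 1 for *Atp5k* in NK cells and for *Ndufa3* in B cells and monocytes. In naive T cells the other 3 members past 1.5-fold in anti-OX40/CpG were *mt-Nd3* (1.58), *Ndufa1* (1.57) and *Ndufa5* (1.54). The lowest ratios in anti-OX40/CpG were 0.679 for *Ndufa9*, 0.722 for *mt-Nd5* and 0.732 for *Ndufb8*.

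In anti-PD-L1 the highest ratios were 1.45 for *Ndufa1*, 1.40 for *Ndufs8* and 1.39 for *Ndufa11*, and the lowest 0.508 for *mt-Atp8*, 0.652 for *mt-Nd4l* and 0.73 for *mt-Nd5*. In PDOX *Ndufb2* was at 1.54, *Ndufs8* at 1.54 and *Ndufa5* at 1.49, and the lowest were *mt-Atp8* at 0.299, *mt-Nd4l* at 0.414 and *mt-Nd3* at 0.568. The genes past 1.5-fold lower were mtDNA-encoded in both libraries, and they included *mt-Nd5* (0.592) in PDOX.

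*mt-Atp8* and *mt-Nd4l* are the short genes printed at the start, of 204 and 297 bases. *mt-Atp8* was at 1.41, 0.715, 1.39 and 0.42 UMIs per 10000 in naive T cells, with PDOX lowest, whereas its overlapping neighbor *mt-Atp6* was at 68.0, 57.5, 56.2 and 60.0. Per 100 *mt-Atp6* UMIs there were 2.07 *mt-Atp8* UMIs in untreated, 1.24 in anti-PD-L1, 2.48 in anti-OX40/CpG and 0.701 in PDOX. The intervals of anti-PD-L1 (1.09 to 1.42) and PDOX (0.537 to 0.9) lay apart from each other and from those of the other two libraries. Effector T cells held 1.81, 1.44, 2.48 and 0.807 and monocytes 2.51, 1.19, 2.44 and 0.982 in the same order of libraries. PDOX was the lowest in both gates, as in naive T cells. The untreated effector value rests on 9 UMIs of *mt-Atp8* and the monocyte values on 14, 12, 6 and 5. In B cells the values were 1.57, 0.663, 2.21 and 0.896 (12, 7, 4 and 5 UMIs), with anti-PD-L1 lowest. In NK cells they were 2.83, 0, 1.90 and 0.617 (8, 0, 6 and 2 UMIs), also with anti-PD-L1 lowest.

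*mt-Nd4l* was set against *mt-Nd4*, its neighbor on the shared message, in the same way. Naive T cells held 5.37, 4.24, 5.87 and 2.59 *mt-Nd4l* UMIs per 100 *mt-Nd4* UMIs. PDOX was again lowest, but the interval of anti-PD-L1 (3.65 to 4.89) overlapped that of untreated (4.5 to 6.37). Effector T cells held 3.20, 3.82, 5.63 and 2.53, where the untreated value rests on 4 UMIs. In monocytes the values were 5.88, 4.65, 1.54 and 3.20, with anti-OX40/CpG lowest on 1 UMI. *mt-Nd3*, of 348 bases and not overlapping a member, was at 1.94, 1.78, 3.06 and 1.10 UMIs per 10000 in naive T cells and at 1.64, 1.60, 2.86 and 0.971 in effector T cells, again highest in anti-OX40/CpG and lowest in PDOX. Library and treatment cannot be told apart here.

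**Figure D5:**
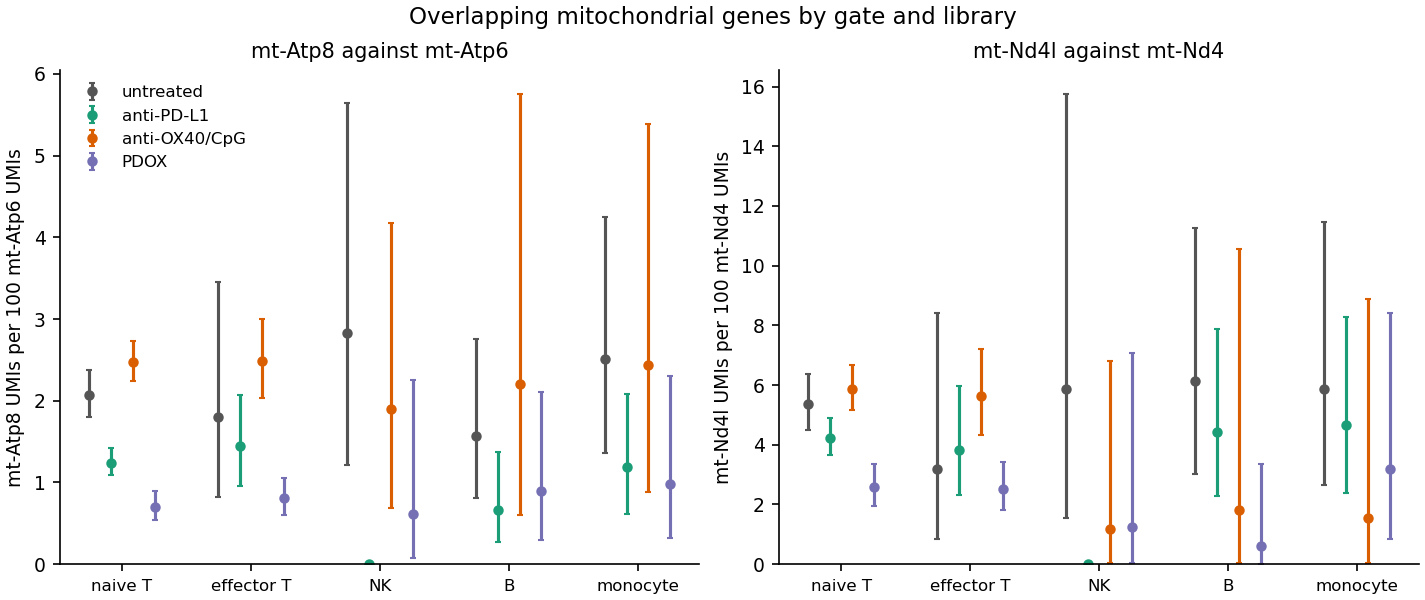
UMIs of *mt-Atp8* per 100 UMIs of *mt-Atp6* (left) and of *mt-Nd4l* per 100 of *mt-Nd4* (right) by gate and library, with exact 95% intervals. In naive T cells PDOX is lowest in both panels (0.701 and 2.59), and the NK, B and monocyte gates rest on few UMIs.

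Several genes of complexes I and IV have forms restricted to other tissues, such as muscle or testis. *Cox4i2*, *Cox7b2*, *Cox8b*, *Cox8c* and *Ndufa4l2* had 0 UMIs in 5304 cells, which allows up to 0.0566% of cells with a UMI. *Cox6b2*, the testis form of *Cox6b1*, had 39 UMIs in 35 cells, and the muscle forms *Cox7a1* and *Cox6a2* had 5 UMIs each.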

How the data were processed

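Blood cells enriched for T cells were profiled with 10x 3′ v2 chemistry, and the deposited files hold raw UMI counts per gene and cell, which the authors made with Cell Ranger 2.1.1 (mm10 and Seurat 2 are also listed in the submitters' processing notes). Cell calling and the annotation release are not given in the sources used here. The labels and the study's methods name different sequencers. The study left mitochondrial, ribosomal and hemoglobin genes out of its own clustering and removed cells under 200 or over 2900 genes, whereas all genes and all cells with at least 200 genes were used here (5304 of 5434 barcodes, median 2814.5 UMIs). No limit was set on the mtDNA-encoded share of a cell, which was over 5% in 277 of these cells.

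T cells had at least 2 UMIs of *Cd3d*, *Cd3e* and *Cd3g* together, and at most 1 B cell and 1 monocyte UMI. Cycling T cells had at least 3 UMIs from 2 or more cell cycle genes, and of the remaining T cells effector cells had at least 25 effector UMIs per 10000 and naive cells at most 10 together with a naive marker. NK and B cells needed at least 3 UMIs of their markers. Monocytes needed at least 2 of theirs and also at least 5 together with a broader list. All 3 gates allowed at most 1 *Cd3* UMI. NK cells had at most 1 B cell and 1 monocyte UMI, B cells at most 1 monocyte UMI and monocytes at most 1 B cell UMI. No limit on NK marker UMIs was set for B cells and monocytes. No doublet caller was run, and the limits on mixed markers were the only guard. *Trac*, *Trbc1* and *Trbc2* were also on the T cell list but are not among the gene symbols of the counts used here.

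Counts were summed per gate and library (at least 10 cells in both gates) and fitted with edgeR 4.0.16 in R 4.3.3 (quasi-likelihood, filterByExpr, TMM, library as block), with an adjusted p of 0.05 as threshold. DESeq2 1.42.0, library size scaling, other filters and gates and leaving out each library were alternatives. The test of NK cells without neutrophil UMIs and the lineage interaction were added after seeing the data. Treatments, at 1 library each, were compared by ratio with exact binomial intervals. Sums and figures used Python 3.11.15 with SciPy 1.17.1 and matplotlib 3.10.9. The test was checked on simulated counts, but the outcome is not given here and no result rests on it.

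The members and gene lists were chosen with earlier results of these data known. The genes named were all 13 mtDNA-encoded members, the 5 largest nuclear rises and falls called with the same direction in every library, fixed isoforms and complex II genes, the 3 highest and lowest treatment ratios, and the 3 largest rises and falls of other comparisons. Further genes were named after their values were seen, where a count was 5 or fewer or a value differed between libraries.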

Additional observations from a re-analysis of the deposited data

Results flagged for a closer look

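Signal of the members was also present in barcodes that no comparison used. In the 130 barcodes with fewer than 200 genes, in which hemoglobin genes held 95.9% of the UMIs, the mtDNA-encoded members held 29.2 and the nuclear members 4.93 UMIs per 10000, above the limit that a count of 0 allows. The mtDNA-encoded level there was 37.9 (untreated), 12.3 (anti-PD-L1, 3 barcodes), 30.1 (anti-OX40/CpG) and 6.63 (PDOX). In the 886 cells that had at least 200 genes but met no gate, the members held 257 mtDNA-encoded and 179.9 nuclear UMIs per 10000. By library the former was 235 to 282 and the latter 169.9 to 185, against 239 to 278 and 162 to 179.8 in naive T cells.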

How the results depend on the processing

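Of 588 values of 56 results recomputed under alternatives, 503 kept their direction and side of the threshold or moved less than the spread. The causes of the changes below were not tested unless the setting itself shows them. The number of members called moved with the scaling and with the test. With library size alone it was 61 in effector against naive T cells (31 with TMM), 59 in CD8+ (30), 34 in CD4+ (14), 17 in NK cells (37), 12 in B cells (20) and 52 in monocytes (33). Library size moved the median log2 fold change of all genes by over 0.1 in each of these, for example from -0.30 to 0.29 in NK cells. On that scale *Ndufa10*, *Atp5g1* and *Atp5g3* turned to 0.082, 0.092 and 0.31. DESeq2 called 14 members in CD8+ cells, 2 in CD4+ cells, 4 in cycling cells, 14 in NK cells, 1 in B cells and 20 in monocytes. Without the filter on low counts 8 members were called in CD4+, 7 in cycling and 35 in B cells. Leaving ribosomal protein and hemoglobin genes out of the fit gave 24 in NK cells, leaving out cells over 2900 genes gave 10 in cycling cells, and leaving out NK cells with neutrophil UMIs gave 18. No paired analysis was possible because each treatment group has 1 library, as far as treatments are concerned. The gate comparisons were paired by library, which was held as a block, and with no library block 21 members were called in effector T cells, 4 in CD4+ effector, 10 in cycling and 11 in B cells. Leaving out 1 library at a time gave 23 to 33 members in effector T cells, 17 (without anti-OX40/CpG) to 24 in CD8+, 1 to 13 in CD4+, 7 to 12 in cycling, 20 (without anti-PD-L1) to 28 in NK, 6 to 16 in B cells and 24 to 31 in monocytes. It was also 19 in CD8+ and 22 in NK cells without PDOX. With ribosomal protein and hemoglobin genes out of the denominator, the median ratios to naive T cells of the mtDNA-encoded and nuclear sums were 0.654 and 0.948 in effector T cells, 0.328 and 0.722 in NK cells, 1.10 and 0.739 in B cells and 0.517 and 0.931 in monocytes, so the nuclear sum turned from higher to lower in effector T cells, NK cells and monocytes. The mtDNA-encoded ratio of cycling to effector T cells (0.949) turned to 1.09 without cells over 2900 genes, to 1.02 as a mean over cells, and to 1.04 and 1.06 without anti-PD-L1 and without anti-OX40/CpG (0.923 to 1.06 over all libraries). In naive T cells the smaller denominator gave mtDNA-encoded and nuclear ratios to untreated of 0.884 and 1.13 in anti-PD-L1, 0.97 and 1.15 in anti-OX40/CpG and 0.888 and 1.15 in PDOX, with 1 and 8 members past 1.5-fold in anti-PD-L1 and anti-OX40/CpG. A limit of 5 effector UMIs per 10000 for naive T cells gave 0.844 and 1.11 in anti-PD-L1 and 0.877 for the mtDNA-encoded sum in anti-OX40/CpG. Depth limits the cycling, NK, B and monocyte gates, with 53 to 161 cells in all.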

Other observations

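Per cell, in place of per UMI, the mtDNA-encoded members held 80.4, 77.2, 80.9 and 68.8 UMIs in naive T cells and 73.9, 91.1, 63.8 and 49.1 in effector T cells in the same order of libraries as above. The nuclear members held 46.8, 57.2, 55.9 and 51.9 UMIs per naive and 58.1, 92.6, 69.0 and 62.0 per effector T cell. The nuclear count per cell was thus higher in effector T cells in all 4 libraries, and the mtDNA-encoded count was lower in 3 and higher in anti-PD-L1. Cycling T cells of the treated libraries held 206, 138 and 164 mtDNA-encoded and 259.8, 230.4 and 213 nuclear UMIs per cell.

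Among the other pathway genes, 3 of 11 genes of mtDNA expression tested in NK cells (27.3%, against 16.0% of all genes) fell and 0 rose against naive T cells, with 1 higher at an unadjusted p under 0.05 in edgeR and 0 called by DESeq2. Of 31 partners and assembly factors tested in monocytes, 3 rose (9.68%) and 5 fell (16.1%), both below the 20.6% and 20.5% of all genes.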
